A study of Homo sapiens with 6 samples.

Results

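The 10 genes described here are the heat shock transcription factor HSF1 and 9 chaperones and co-chaperones: HSPA1A, HSPA1B, HSPA8, HSPH1, DNAJB1, BAG3, HSP90AA1, HSP90AB1 and HSPB1. They were chosen by name, and all 10 of the 26989 named genes in the deposited table that carry these symbols were found and tested. The level of a gene is the sum of its RefSeq transcript values. RNA-seq was done on UWB1.289, an established human ovarian carcinoma cell line that lacks functional BRCA1. One group of 3 libraries came from cells with a control hairpin (shCTRL), and the other 3 came from cells with a hairpin against HBO1 (shHBO1), the histone acetyltransferase encoded by KAT7. Both groups were transduced with polybrene at 10 µg/mL and from 96 h on were selected in puromycin raised from 1 to 3 µg/mL. The labels do not state the number of hairpins, whether clones or pools were taken, or whether the 3 libraries of a group were separate cultures. The p-values therefore rest on library-to-library spread alone, and that spread could be technical.

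HSF1 is the main regulator of the heat shock response. In unstressed cells it is held inactive by chaperones; when unfolded proteins draw the chaperones away it forms trimers, enters the chromatin and binds heat shock elements, which are inverted repeats of the unit nGAAn. Its targets include the inducible HSP70 genes HSPA1A and HSPA1B, their J-domain partner DNAJB1, the nucleotide exchange factors HSPH1 and BAG3, the inducible HSP90 gene HSP90AA1 and the small heat shock protein HSPB1. HSPA8 and HSP90AB1 are the constitutive HSP70 and HSP90 genes, which are abundant in most cells without stress. Many carcinomas keep HSF1 and its chaperones at a high level.

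The upstream sequences of the members with an exact match to 2 or 3 units of the heat shock element are shown. HSF1 binds heat shock elements, and binding to these stretches was not measured. RefSeq upstream windows of GRCh38.p14 matched 9 of the 10 symbols, and HSF1 was not matched. The search covered the 250 bases before the start that the table gives. This start need not be that of the transcript with the most reads. Capitals mark GAANNTTC or TTCNNGAA, the 2-unit forms, or their extensions GAANNTTCNNGAA and TTCNNGAANNTTC, the 3-unit forms. Each 2-unit form reads the same on both strands, and every 3-unit match also holds both 2-unit forms. A 2-unit form was present in 4 of 9 member windows and in 11.7% of 27305 windows of the same length. A 3-unit form was present in 1 member window and in 0.439% of all windows. The 4 windows are printed 5′ to 3′ on the gene's strand, at chr6:31815293-31815542 (plus strand) for HSPA1A, chr6:31827488-31827737 (plus) for HSPA1B, chr11:123062137-123062386 (minus) for HSPA8 and chr7:76302423-76302672 (plus) for HSPB1.
HSPA1A: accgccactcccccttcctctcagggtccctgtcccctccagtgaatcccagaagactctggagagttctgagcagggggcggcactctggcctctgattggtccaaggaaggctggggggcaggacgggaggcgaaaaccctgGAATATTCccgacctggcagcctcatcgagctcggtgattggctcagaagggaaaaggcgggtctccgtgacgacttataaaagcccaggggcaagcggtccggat
HSPA1B: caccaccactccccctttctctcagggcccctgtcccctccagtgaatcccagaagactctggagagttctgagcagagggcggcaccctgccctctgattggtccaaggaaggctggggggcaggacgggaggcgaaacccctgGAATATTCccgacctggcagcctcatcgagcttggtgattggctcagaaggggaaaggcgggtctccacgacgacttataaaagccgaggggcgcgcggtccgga
HSPA8: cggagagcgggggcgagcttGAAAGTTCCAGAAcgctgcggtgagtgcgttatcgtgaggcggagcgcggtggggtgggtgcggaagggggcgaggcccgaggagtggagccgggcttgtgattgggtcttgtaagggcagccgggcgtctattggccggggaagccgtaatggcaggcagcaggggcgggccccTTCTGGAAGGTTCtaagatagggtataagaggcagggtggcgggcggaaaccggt
HSPB1: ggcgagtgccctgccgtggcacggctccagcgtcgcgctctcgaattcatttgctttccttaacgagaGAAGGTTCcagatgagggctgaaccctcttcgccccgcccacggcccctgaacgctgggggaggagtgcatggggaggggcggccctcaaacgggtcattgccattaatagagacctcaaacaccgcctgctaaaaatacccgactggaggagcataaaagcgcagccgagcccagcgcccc
HSPA1A and HSPA1B carry the same 8 letters, beginning at base -106 and base -105 from the start. Their 2 windows were 94.4% identical over 249 aligned bases. In HSPA8 a 3-unit match begins at base -230 and another at base -55, and in HSPB1 a 2-unit match begins at base -182. The windows of HSP90AA1, HSP90AB1, HSPH1, DNAJB1 and BAG3 did not hold these letters, which says nothing of elements with a mismatch or elsewhere.

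**Figure D1:**
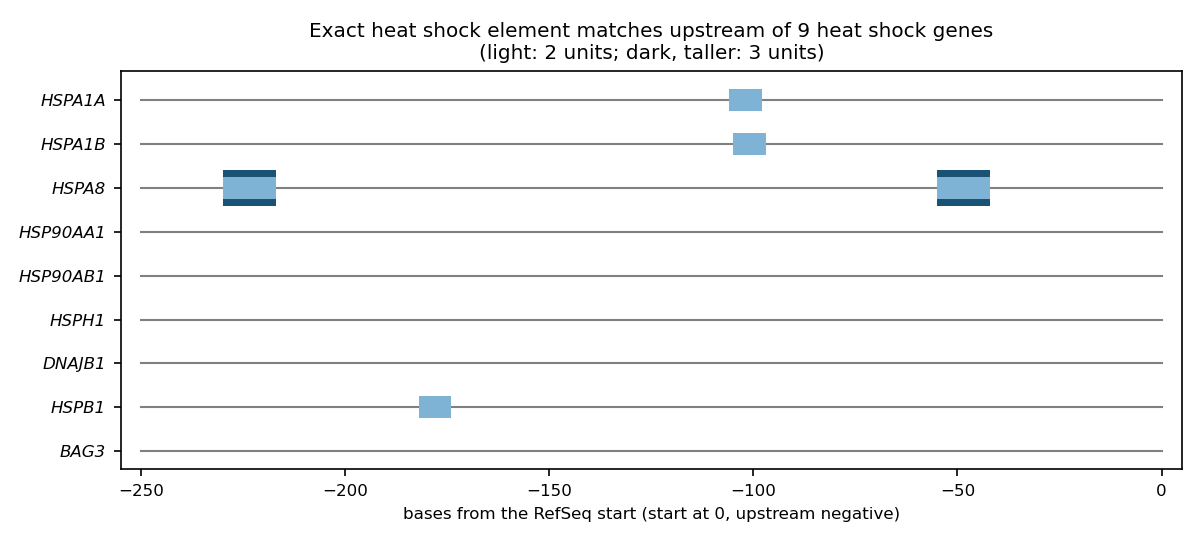
Positions of exact matches to 2 or 3 units of the heat shock element (x axis, bases from the RefSeq start) in the 250 bases upstream of 9 heat shock genes (y axis). Light bars are 2-unit and dark bars 3-unit matches; HSPA8 has 2 separate 3-unit matches, at bases -230 and -55, and HSPA1A and HSPA1B have 1 match each near base -105.

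The recovered depth was 35940400 to 39908703 reads per library, and 15182 genes had a mean of at least 10 normalized counts and were tested. The hairpin's target KAT7 was at 3616, 3952 and 3554 normalized counts in shCTRL and 1008, 872 and 784 in shHBO1, so its groups did not overlap (limma log2 fold change −2.07, SE 0.11, adjusted p = 0.00123). The exact two-sided permutation test of KAT7 gave p = 0.1, the smallest that 3 against 3 libraries allow. Epithelial and ovarian carcinoma markers were present, with all 9 tested and a summed level of 347012 to 405055 in shCTRL and 326468 to 385224 in shHBO1. WFDC2 was the only 1 of the 9 with groups that did not overlap (log2 fold change −0.43, limma adjusted p = 0.9999). Over all tested genes 8.93% had such groups. The 4 endothelial markers summed to 790 to 1319 normalized counts over the 6 libraries, mostly from CDH5. The 5 leukocyte markers summed to 502 to 663, mostly from CD68. The 4 fibroblast markers summed to 502 to 895, nearly all from COL1A1, with DCN and PDGFRA at 0 in every library.

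The first question was whether the heat shock genes differed between shHBO1 and shCTRL cells. None of the 10 did by the test used. HSPH1 had the highest estimate and HSPB1 the lowest, and the other 8 lay between them. With limma on log2(normalized count + 1), 0 of the 10 members passed an adjusted p of 0.05, 0 had an unadjusted p under 0.05, and over all tested genes 0.00659% passed, a single gene, KAT7. edgeR and DESeq2 on recovered reads also called 0 members, beside 1 and 19 of all tested genes. Log2 fold changes, shHBO1 minus shCTRL, ran from −0.11 (HSPB1) to 0.15 (HSPH1), 6 were above 0 and 4 below, and their median was 0.046, beside 0.00018 over all tested genes; with quantile normalization 8 were above 0 and 2 below. In 0 of the 10 members did the 3 shHBO1 values lie entirely on 1 side of the 3 shCTRL values, while 8.93% of tested genes were separated in this way.

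HSF1, the transcription factor itself, was at 6373, 6132 and 7382 normalized counts in shCTRL and at 6287, 6267 and 6932 in shHBO1. The groups overlapped, and the library numbered 3 was the highest of each. Its means were 6629 ± 663 and 6495 ± 379 (SD, n = 3), a log2 fold change of −0.026 with a 95% confidence interval of −0.23 to 0.18.

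HSPA1A and HSPA1B encode the stress-inducible HSP70 and sit side by side in the genome. HSPA1A was at 3717, 4279 and 7278 normalized counts in shCTRL and at 4310, 5072 and 6713 in shHBO1. HSPA1B was at 3473, 4083 and 5239 in shCTRL and at 3817, 4504 and 4885 in shHBO1. Both genes had the same order in both groups, lowest in number 1 and highest in number 3, and the shHBO1 values fell within the range of the shCTRL values. On the log2 scale HSPA1A differed by 0.11 (95% confidence interval −0.48 to 0.71) and HSPA1B by 0.059 (−0.31 to 0.42). HSPA1A had the widest interval of the 10 genes. Its SE was 0.26, and 0.078 with the replicate number as a block. The transcripts of the pair were 98.7% identical over 2150 aligned bases in GENCODE release 29, with a longest shared run of 1715 bases, so the split of reads between them is uncertain. Their sum had a log2 fold change of 0.087 (−0.40 to 0.57).

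HSPA8, the constitutive HSP70 of the cytosol, was at 65592, 80790 and 114318 normalized counts in shCTRL and at 85597, 88013 and 92107 in shHBO1. All 3 shHBO1 libraries lay between the second and the highest control library. The means were 86900 ± 24931 and 88572 ± 3291, with a log2 fold change of 0.065 (SE 0.18). Within the numbered pairs the log2 difference was 0.38, 0.12 and −0.31, so number 1 and number 3 differed in sign.

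The HSP70 partners among the members also had overlapping groups. HSPH1, the HSP110 nucleotide exchange factor, was at 21641, 25098 and 30339 normalized counts in shCTRL and at 25588, 29726 and 29443 in shHBO1. Its log2 fold change of 0.15 (SE 0.13, 95% confidence interval −0.15 to 0.44) was within the spread, and the highest single value was a control. DNAJB1, the J-domain protein that hands substrates to HSP70, was at 10501, 11346 and 13302 in shCTRL and at 10962, 11808 and 12236 in shHBO1. Its log2 fold change was −0.00032 (SE 0.098), and 0.0036 with quantile normalization. BAG3, which links HSP70 to autophagy of damaged proteins, was at 2096, 2338 and 2824 in shCTRL and at 2345, 2612 and 2688 in shHBO1 (log2 fold change 0.084, SE 0.12). For BAG3 too the lowest and the highest value were both controls.

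Neither HSP90 gene passed. HSP90AA1, the inducible cytosolic HSP90, was at 71698, 82242 and 103255 normalized counts in shCTRL and at 78788, 92806 and 89129 in shHBO1 (log2 fold change 0.033, SE 0.14). HSP90AB1, the constitutive form, was at 77813, 90710 and 90271 in shCTRL and at 85071, 92414 and 78306 in shHBO1 (log2 fold change −0.017, SE 0.097, and 0.057 with quantile normalization). HSP90AB1 had no common order of the numbers: number 3 was near the top in shCTRL and the lowest in shHBO1. HSPB1, the small heat shock protein HSP27 that binds unfolding proteins without ATP, was at 47169, 39075 and 35671 in shCTRL and at 40658, 35035 and 36919 in shHBO1. HSPB1 differed by −0.11 on the log2 scale (SE 0.11, 95% confidence interval −0.37 to 0.16), and the number 1 library was the highest in each group. In HSPA1A, HSPA1B, HSPA8, HSP90AA1, HSPH1, DNAJB1 and BAG3 number 1 was the lowest in each group.

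**Figure D2:**
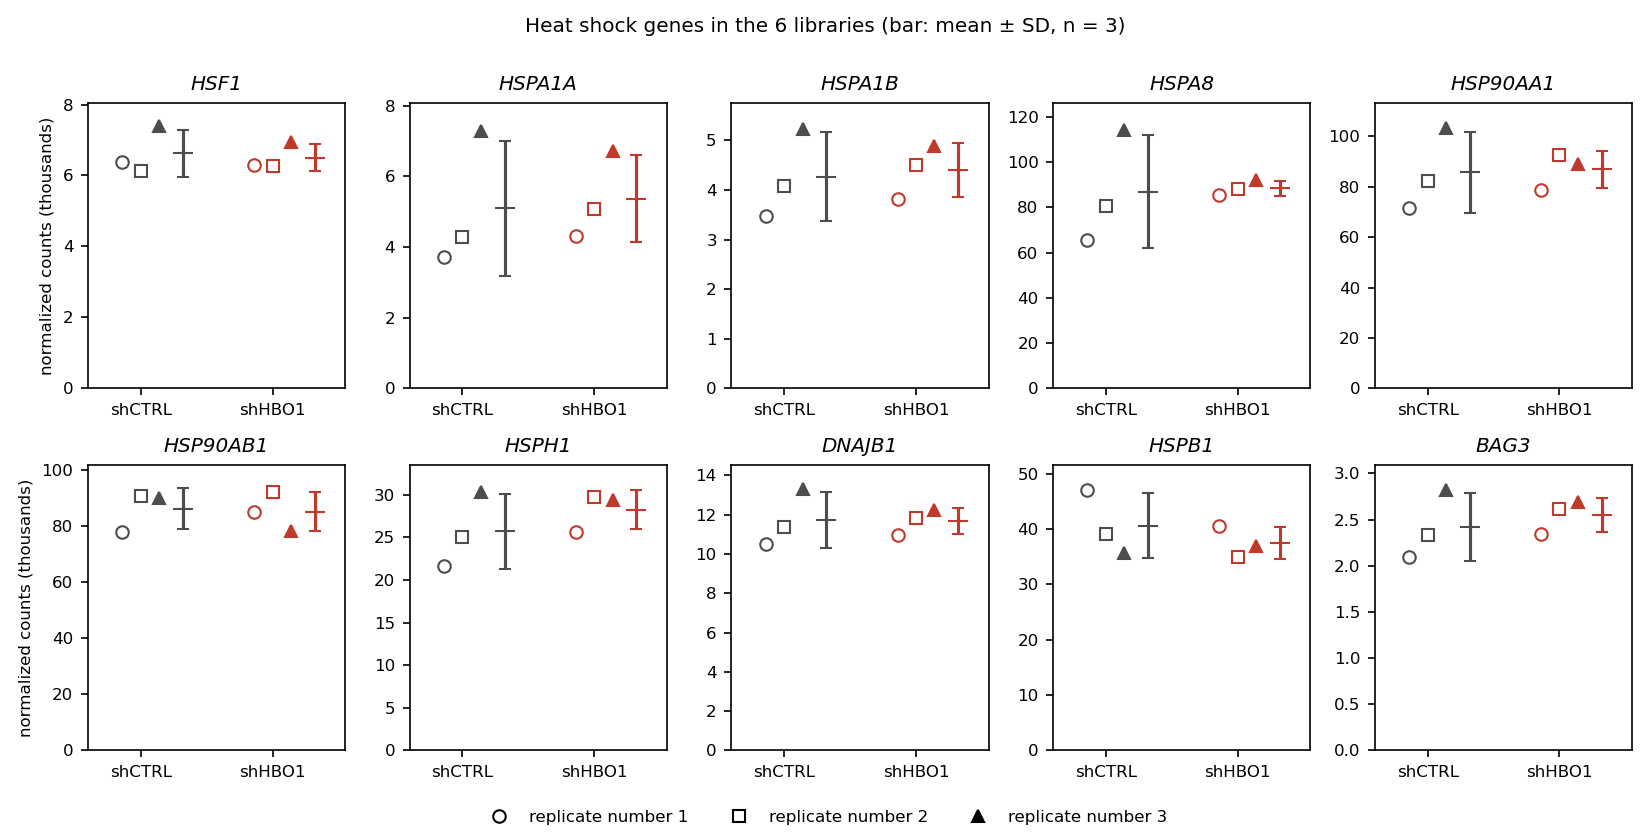
Normalized counts (y axis, from 0) of the 10 heat shock genes in each library, by group (x axis) and replicate number (symbols); bars beside the points are the mean ± SD of 3 libraries. The groups overlap in every panel, and HSPA1A runs from 3717 to 7278 in shCTRL and from 4310 to 6713 in shHBO1.

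The spread between libraries was smaller in shHBO1 than in shCTRL for these genes. The coefficient of variation was lower in shHBO1 for 10 of 10 members, against 64.3% of all tested genes. For HSPA8 it was 28.7% in shCTRL and 3.72% in shHBO1, and for HSP90AA1 18.7% and 8.36%. HSP90AB1 was nearly level, at 8.49% and 8.28%. In the lists described below the coefficient was also lower in shHBO1 for every chaperonin but CCT8 and every J-domain gene but DNAJC21. The other lists were mixed, so the smaller spread was not particular to the members. With 3 libraries a group and members that share the same libraries, the difference in spread was not tested.

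Within the numbered pairs the difference between hairpins changed sign. In 8 of 10 members the shHBO1 library was higher than the control in number 1 and lower in number 3, a pattern that 28.2% of all tested genes had. It was not particular to the members: 42 of the 79 tested genes of the chaperone lists described below had it, with all 10 chaperonins among them. HSPB1 had the opposite pattern, found in 24.7% of tested genes, and HSF1 was lower in both number 1 and number 3. The median log2 difference of the members was 0.14, 0.13 and −0.11 in pairs 1, 2 and 3, against 0.0063, 0.00087 and −0.0097 over all tested genes. Without both libraries numbered 3, 9 of the 10 estimates were above 0 with a median of 0.15. The smallest limma adjusted p of any member was then 0.350. Without shCTRL replicate 1, 2 of the 10 were above 0 and the median was −0.077. Without shCTRL replicate 3, 9 of the 10 were above 0 and the median was 0.19. The number of members above 0 thus moved with either of these control libraries. With the replicate number as a block the smallest limma adjusted p of any member was 0.493, for HSPH1, beside 0.125% of all tested genes called.

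**Figure D3:**
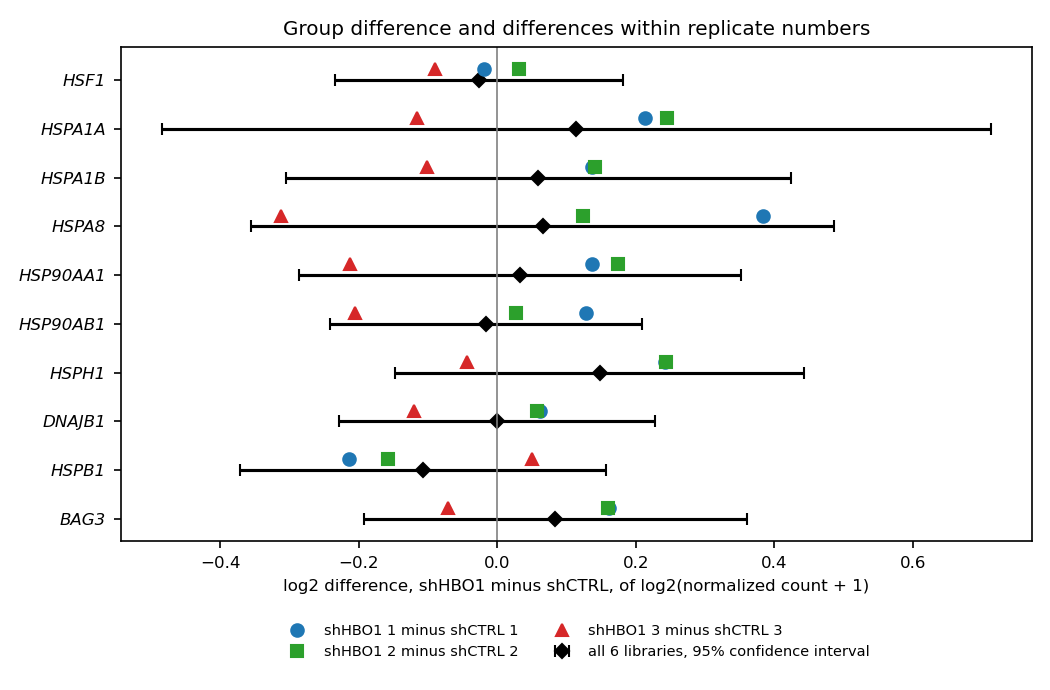
Log2 difference (x axis, shHBO1 minus shCTRL, of log2(normalized count + 1)) of each heat shock gene (y axis) over all 6 libraries, with its 95% confidence interval, and within each replicate number. All 10 intervals include 0, and the number 3 pair lies below 0 for 9 genes and above 0 for HSPB1.

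The next contrast was between replicate numbers, with both hairpins together. The labels give the numbers 1 to 3 in each group and name no day, culture or batch behind them. By limma's F test of the number in the fit with group and number, HSPA1A and HSPA1B passed, 2 of the 10, both higher in number 3 than in number 1. Over all tested genes 9.69% passed, 4.85% with number 3 above number 1 and 4.84% with number 3 below it, where 0 members were called. The log2 difference between number 3 and number 1 was 0.80 for HSPA1A (limma adjusted p = 0.00694) and 0.47 for HSPA1B (limma adjusted p = 0.0268). HSPA1A was 1.96 times as high in number 3 as in number 1 among shCTRL libraries and 1.56 times as high among shHBO1 libraries. The estimates of the members that did not pass were 0.45 for HSPA8, 0.35 for HSP90AA1, 0.34 for HSPH1, 0.31 for BAG3, 0.25 for DNAJB1, 0.18 for HSF1, 0.047 for HSP90AB1 and −0.27 for HSPB1. In 6 members, HSF1, HSPA1A, HSPA1B, HSPA8, DNAJB1 and BAG3, both number 3 libraries were higher than the other 4, which was so for 21.6% of all tested genes. In 0 members were both lower than the other 4, against 19.4% of tested genes. The members' share of all normalized counts was 0.847% and 0.926% in number 1 and 1.09% and 0.993% in number 3, shCTRL first.

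These calls rested in part on single libraries. HSPA1A kept its call whichever single library was dropped. HSPA1B did not pass without shCTRL replicate 1, shCTRL replicate 2 or shHBO1 replicate 2 (limma adjusted p = 0.0766, 0.0799 and 0.0743), and each of these left 1 member called, when 8.06%, 3.09% and 3.64% of all tested genes passed. Without shCTRL replicate 3, 6 members were called and 20.0% of all tested genes. Without shHBO1 replicate 1, 3 members and 12.4% of genes were called, and without shHBO1 replicate 3, all 10 members and 38.5% of genes. Each such fit has 5 libraries and 1 residual degree of freedom. In the same contrast MALAT1 and NEAT1, 2 of 6 RNAs listed as nuclear-retained, were lower in number 3. Their log2 differences were −1.01 and −0.90 (limma adjusted p = 0.00946 and 0.00832). The other 4 did not pass and went the other way, at 0.11 for KCNQ1OT1, 0.87 for RMRP, 0.65 for RPPH1 and 0.68 for RN7SK. The 6 RNAs summed to 12690 to 24847 normalized counts in shCTRL and 17173 to 26424 in shHBO1, mostly from NEAT1 and MALAT1. Of the 9 epithelial and ovarian markers 3 passed and were lower in number 3, where 4.84% of all tested genes did. These were PAX8, KRT19 and MUC16, at −0.46, −0.52 and −1.28 on the log2 scale. Only WFDC2 of the 9 had an estimate above 0, at 0.16. In 6 of the 9 both number 3 libraries were lower than the other 4, against 19.4% of tested genes. The part of these RNAs and markers in the result was not tested.

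The counts assigned to the 2 HSP70 genes also shifted relative to each other. The split of reads between these genes is uncertain, as stated above, so the ratio is that of the assigned counts only. In the order of the numbers, HSPA1A divided by HSPA1B gave 1.07, 1.05 and 1.39 for shCTRL and 1.13, 1.13 and 1.37 for shHBO1. Both number 3 libraries were above the other 4, which lay between 1.05 and 1.13, and the hairpins overlapped. HSPA6, another HSP70 gene, which is nearly silent in unstressed cells and strictly stress-induced, was likewise highest in the number 3 library of each group. It had 7.11, 15.9 and 165 normalized counts in shCTRL (7, 17 and 157 reads) and 15.9, 31.6 and 95.5 in shHBO1 (17, 31 and 99 reads). Its log2 difference between number 3 and number 1 was 3.43 (limma adjusted p = 0.0132), while its difference between hairpins was 0.41 (SE 1.11, limma adjusted p = 0.9999). HSPA6 resembles HSPA1A and HSPA1B in sequence, and reads assigned to the wrong copy could enter so low a count.

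**Figure D4:**
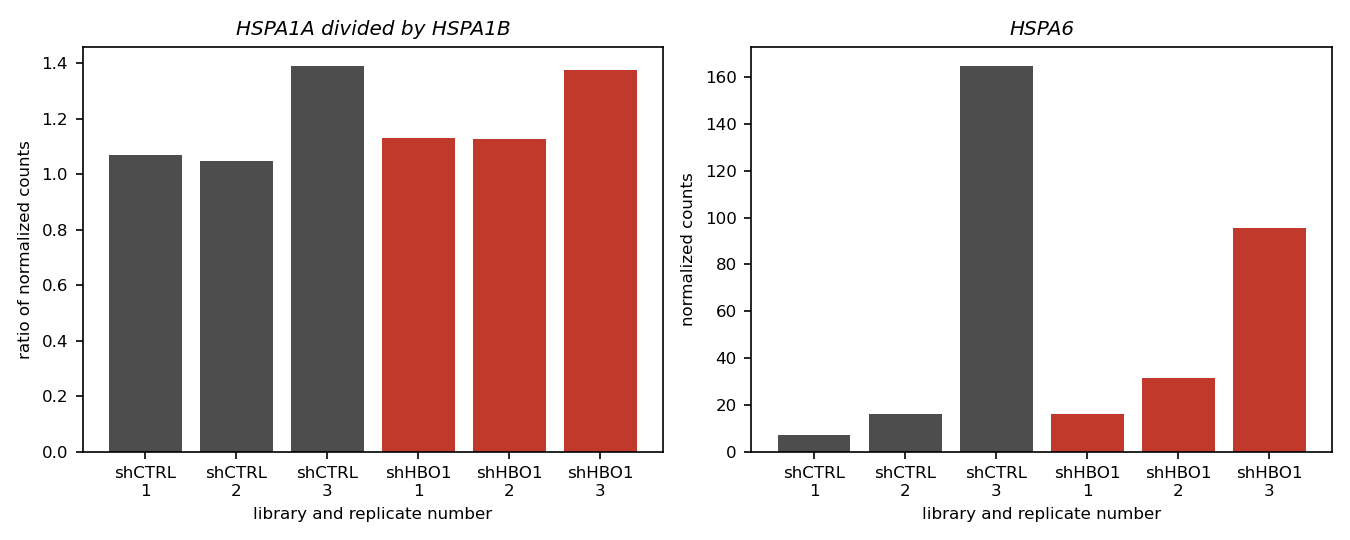
Left, the ratio of HSPA1A to HSPA1B normalized counts; right, normalized counts of HSPA6 (y axes, from 0) in each of the 6 libraries (x axis), grey for shCTRL and red for shHBO1. Both number 3 libraries are the highest in both panels, at ratios of 1.39 and 1.37 and at 165 and 95.5 counts.

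The rest of the chaperone network was read from 8 lists of 86 further genes, of which 79 were tested. Between hairpins 0 of the 79 passed with or without the block, 41 estimates were above 0 and 38 below, and the median log2 fold change was 0.0053. HSPA1L, a testis-type HSP70 gene that neighbours HSPA1A head to head, was the single one with an unadjusted p under 0.05, where 3.54% of all tested genes had one. It was at 96.5, 111 and 125 normalized counts in shCTRL and 77.6, 85.5 and 70.4 in shHBO1, without overlap (log2 fold change −0.50, limma adjusted p = 0.9999). HSPA12A, a distant HSP70 relative, was also lower without overlap, at 81.4 ± 7.87 and 59.8 ± 17.3 (log2 fold change −0.48), but its most abundant transcript gave 0.24. TENT5C and FBXO30, known HSF1 targets, were higher in shHBO1 without overlap, at log2 fold changes of 0.21 and 0.15. This made 4 of 79 with groups that did not overlap, where 8.93% of all tested genes had such groups. Whether HSPA1L and its neighbour overlap was not examined, and any overlapping reads could not be told apart without knowledge of strand.

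Among the HSP90 co-chaperones CHORDC1 stood at 0.21 on the log2 scale (SE 0.12), while the mitochondrial HSP90 TRAP1 had −0.13 (SE 0.086). In 18 further J-domain proteins 14 estimates were above 0 and 4 below, with DNAJC2 at 0.11 and the endoplasmic reticulum protein DNAJC10 at 0.093. All 4 tested small heat shock proteins had estimates below 0, as HSPB1 did. Over all 15182 tested genes 7598 estimates were above 0 and 7584 below. CRYAB, the alpha-B crystallin, was at 5346 ± 818 in shCTRL and 4507 ± 495 in shHBO1 (log2 fold change −0.24, SE 0.12), and HSPB6 had −0.25 (SE 0.20). The HSP70 partner factors were close to 0, with BAG4 at 0.082 (−0.11 for its most abundant transcript), HSPBP1 at −0.056 and ST13 at −0.017. Of the chaperonins, which fold actin and tubulin or mitochondrial proteins, CCT6A had −0.10, CCT2 had 0.097 and HSPD1 had 0.025. The endoplasmic reticulum chaperones HSPA5 and HSP90B1, the most abundant genes of the HSP70 and HSP90 lists, had −0.093 and −0.088. The last genes named by the rule, the HSF-binding protein HSBP1 and the HSF1 target IER5, had 0.058 and 0.23.

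Between replicate numbers 5 of the 79 network genes passed with number 3 higher and 2 with number 3 lower, where 4.85% and 4.84% of all tested genes did, so these counts were near the background. Apart from HSPA6 the higher ones were HSPA4L, an HSP110 relative of HSPH1, AHSA1, which stimulates the HSP90 ATPase, and the J-domain genes DNAJA4 and DNAJB2, with log2 differences of 0.50, 0.43, 0.62 and 0.64 between number 3 and number 1. The lower ones were CRYAB and HSPB2, at −0.29 and −0.54. These 7 were named after their values were seen. HSPA6, DNAJA4 and DNAJB2 passed whichever library was left out. AHSA1 and CRYAB did not pass without replicate 1 or 2 of either group (limma adjusted p from 0.05003 to 0.138 and from 0.0841 to 0.335). HSPA4L was lost without shCTRL replicate 2 or shHBO1 replicate 1 or 2 (limma adjusted p from 0.0572 to 0.0879), and HSPB2 without shCTRL replicate 1 or 2 or shHBO1 replicate 2 (limma adjusted p from 0.0835 to 0.0943). All 10 chaperonin estimates were above 0 in this contrast, with a median of 0.20, and 0 of the 10 passed. Over all 15182 tested genes 7668 estimates were above 0.

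**Figure D5:**
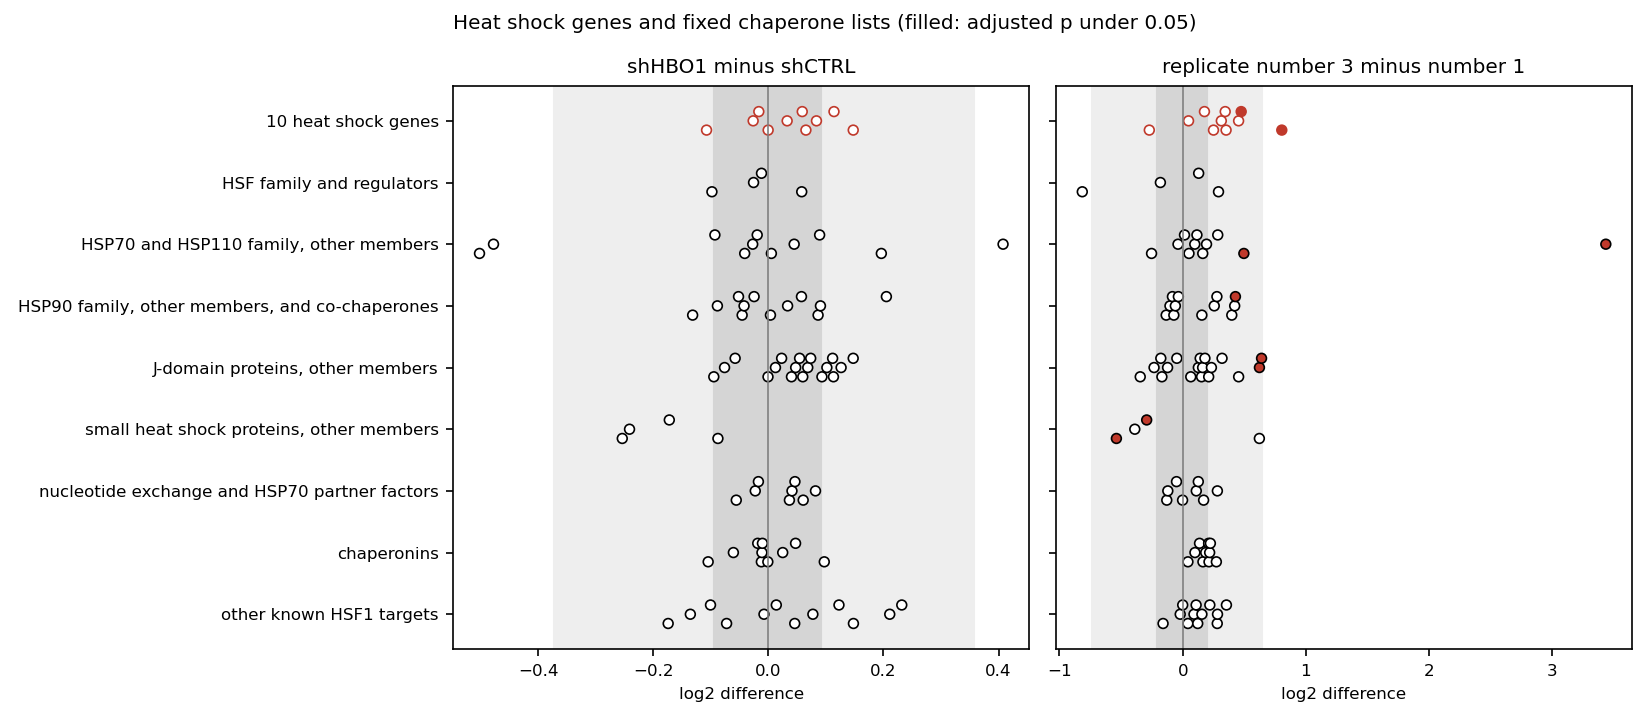
Log2 differences (x axes) of the 10 heat shock genes and of the tested genes of 8 chaperone lists (y axis), between hairpins (left) and between replicate numbers 3 and 1 (right). Dark and light bands hold the middle 50% and 90% of all tested genes and filled points passed an adjusted p of 0.05: 0 between hairpins, and 2 members and 7 list genes between numbers.

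Compared per length, the 10 genes fell into an abundant and a scarce set. Levels per kb of transcript, from GENCODE release 29 lengths, were highest for HSPB1 (44706 ± 6498 normalized counts per kb in shCTRL), HSPA8 (35282 ± 10122), HSP90AB1 (33422 ± 2833) and HSP90AA1 (25370 ± 4755). Next came DNAJB1 (6186 ± 939 per kb) and HSPH1 (5355 ± 1027), then HSF1 (3095 ± 309), HSPA1A (2051 ± 771) and HSPA1B (1692 ± 356), and last BAG3 (941 ± 144). In shCTRL the ranges of neighbours in this order overlapped among the first 4 genes, between DNAJB1 and HSPH1, and among HSF1, HSPA1A and HSPA1B. They did not overlap between HSP90AA1 and DNAJB1, between HSPH1 and HSF1, or between HSPA1B and BAG3. In shHBO1 the order of the means was the same, from HSPB1 at 41295 ± 3148 per kb to BAG3 at 991 ± 70.0. There HSPB1 and HSPA8, HSP90AB1 and HSP90AA1, and HSF1 and HSPA1A did not overlap either.

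A single transcript held nearly all reads of most members. HSF1, HSPA1A, HSPA1B, HSPB1 and BAG3 had 1 deposited transcript each, and NM_006597 and NM_005348 held over 99% of HSPA8 and HSP90AA1. In HSP90AB1 NM_007355 held 70.6% of the counts, NM_001271969 12.2% and NM_001271970 10.7%. In DNAJB1 NM_006145 held 74.1%, NM_001313964 14.1% and NM_001300914 11.8%, and in HSPH1 NM_006644 held 83.5%, NM_001286504 10.2% and NM_001286503 6.08%. The minor transcripts varied more than their genes: NM_001286504 of HSPH1 was at 1492, 2246 and 4837 normalized counts in shCTRL and 641, 4420 and 2935 in shHBO1. The labels do not state how reads were divided among transcripts of 1 gene.

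Genes with a profile like those of the inducible members were found by the root mean square difference of centred log2 levels over the 6 libraries, among 13218 other genes. The nearest to HSPH1 were NGDN, NOPCHAP1 and LRIG2, at differences of 0.022, 0.023 and 0.027 on the log2 scale. NGDN, for example, was at 1708, 1898 and 2398 normalized counts in shCTRL and 1970, 2320 and 2292 in shHBO1. Among the nearest to the sum of HSPA1A and HSPA1B were SRXN1, which encodes sulfiredoxin, and SRRD, at 0.040 and 0.048. SRXN1 was at 1819, 2129 and 3067 in shCTRL and 2049, 2299 and 2742 in shHBO1.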

How the data were processed

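The authors deposited 1 table of normalized signal, read counts per RefSeq transcript divided by 1 factor per library. Per the submitters' processing notes, Bowtie 1.2.1.1, SAMtools, DESeq2 and hg19 were used, with no roles given. Whole reads were recovered for 100% of values in each library (tolerance 0.01 read). Of 58215 accessions, 57191 were named from RefSeq (GRCh38.p14) and 646 from GENCODE release 29; 378 were left out. Transcript values were summed per gene. A read counted for several transcripts would enter a sum more than once.

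The main test was limma-trend (limma 3.58.1, R 4.3.3) on log2(normalized count + 1) for genes with a mean of at least 10, which understates changes of low genes, with Benjamini-Hochberg adjustment over all 15182 genes. Alternatives used the replicate number as a block, edgeR 4.0.16, DESeq2 1.42.0, other scalings, filters and pseudocounts, single transcripts and left-out libraries. The fits were tested on simulated data with independent libraries and larger changes than any member's estimate between hairpins. That test therefore does not cover changes as small as those of the members. Same-numbered libraries deviated together (correlations 0.32, 0.20 and 0.48, all above 0.1). Of differently numbered libraries, shCTRL 2 and shHBO1 1 also had 0.20, and the others lay between −0.39 and 0.055. The numbers were treated as pairs in the pair differences and the block, while the main fit was unpaired. Replicates differed beyond sampling noise (chi-square per degree of freedom 12.8 to 70.9). Sequence identities were from Biopython 1.88 alignments. The members and lists were chosen with earlier results of these data known. The rule named all members, KAT7, 2 genes with the smallest p and the most abundant gene of each list, list genes past the threshold, 3 nearest profiles each for HSPH1 and the HSPA1A and HSPA1B sum, and transcripts with at least 5% of a gene. Of the genes this rule named, 2 are not reported here.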

Additional observations from a re-analysis of the deposited data

How the results depend on the processing

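Of the 10 heat shock genes 0 passed between hairpins in each of the 20 alternatives. KAT7 passed in all 20, and ranged from −2.16 to −1.98 with a library left out. All genes called numbered 1 as reported and with each library left out, 19 with the replicate block, 19 with edgeR and the block, 19 with DESeq2 and 148 with DESeq2 and the block; the cause was not tested. The block changed no member's call. The fits with edgeR or DESeq2 and the block, and those of the replicate number without single libraries or with the HSP70 pair summed, were chosen after seeing the data.

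Some estimates turned sign: HSP90AB1 was 0.057 with quantile normalization and 0.14 for its most abundant transcript, DNAJB1 was 0.0036 with quantile normalization and 0.00022 with DESeq2 and the block, and for the most abundant transcript HSPA12A was 0.24 (−0.48 as reported) and BAG4 −0.11. With libraries left out the log2 fold changes ranged from −0.080 to 0.054 for HSF1, −0.081 to 0.40 for HSPA1A, −0.079 to 0.22 for HSPA1B, −0.12 to 0.28 for HSPA8, −0.088 to 0.18 for HSP90AA1, −0.089 to 0.043 for HSP90AB1, −0.076 to 0.095 for DNAJB1, −0.20 to 0.0051 for HSPB1, −0.014 to 0.20 for BAG3, −0.066 to 0.035 for ST13 and −0.067 to 0.15 for HSPD1. Without both number 3 libraries HSF1 was 0.0058, HSP90AB1 0.078, DNAJB1 0.060 and ST13 0.025.

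Between replicate numbers 2 members passed, beside 9.69% of all tested genes. With quantile normalization 6 did, beside 11.8%, and without replicate 3 (number 2 against 1, where HSF1 was −0.030) 6 did, beside 6.71%. With the HSP70 pair summed 1 did, beside 9.68%, and with a library left out 1 to 10, beside 3.09% to 38.5%, when HSP90AB1 ranged from −0.094 to 0.19. With 3 libraries a group, SEs of the members between hairpins were 0.090 to 0.26 without and 0.055 to 0.12 with the block.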
